A study of Homo sapiens with 9 samples.

Results

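Small nucleolar RNAs (snoRNAs) and small Cajal body RNAs (scaRNAs) were examined by RNA sequencing of nuclei and cytoplasm separated from a human embryonic kidney line. The genes were chosen by name, as those whose symbol begins with SNORA, SNORD or SCARNA, and by level, as those with 10 or more estimated reads in at least 3 of the 9 samples. Of 839 such genes listed in the files, 18 met this minimum: 7 of 399 SNORA genes, 10 of 390 SNORD genes and 1 of 50 SCARNA genes. In all, 16106 of 56347 genes met the same minimum. The level in these samples therefore selected the 18 genes, and their presence above the minimum is not a finding.

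The labels name the line as HEK293, and the methods name its T-antigen derivative. The cells had been transfected with a control siRNA or, together, with siRNAs against WTAP and Virilizer (KIAA1429, now VIRMA), which are subunits of the complex that writes N6-methyladenosine (m6A) on RNA. The comparison addresses how loss of these subunits changes where an RNA lies in the cell. There were 3 control nuclear, 3 RNAi nuclear, 2 RNAi cytoplasmic and 1 control cytoplasmic samples, each of 1 library prepared with a kit for mRNA. No label says that replicates came from separate cultures, so p-values measure only the spread between these samples.

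C/D box snoRNAs (SNORD) guide 2′-O-methylation and H/ACA box snoRNAs (SNORA) guide pseudouridylation, mostly of ribosomal RNA in the nucleolus. The scaRNAs guide the same changes on spliceosomal RNAs in Cajal bodies. Most human snoRNAs are cut from introns of a host gene after splicing and bound by a fixed set of proteins, and a mature snoRNA has no poly(A) tail. A few, among them the U3 family (SNORD3) that acts in cleavage of the ribosomal RNA precursor, are transcribed from genes of their own. A read in these files can therefore come from the mature RNA, from a precursor or from an unspliced host transcript, and these sources cannot be told apart here.

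The sequences of 6 of the genes show what such reads were matched to. They are given 5′ to 3′ on the gene's own strand and were read from GRCh37 (the build called hg19). In the SNORD genes capitals mark the C box (TGATGA, searched in the first 30 bases) and the D box (CTGA, in the last 30 bases), and in the SNORA genes the ACA box (in the last 10 bases). SNORD17 is shown because it was the gene that changed between siRNAs, SNORA71C and SNORA71A as a related pair from the same intron, SNORA73B and SNORD14A as guides of early ribosomal RNA cleavage, and SNORD101 as a gene at 0 in every cytoplasmic library.
SNORD17: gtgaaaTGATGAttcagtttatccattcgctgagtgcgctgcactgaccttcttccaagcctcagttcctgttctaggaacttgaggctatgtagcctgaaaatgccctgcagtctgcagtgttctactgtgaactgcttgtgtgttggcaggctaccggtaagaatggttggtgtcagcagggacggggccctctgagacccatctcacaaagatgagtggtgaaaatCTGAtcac
SNORA71C: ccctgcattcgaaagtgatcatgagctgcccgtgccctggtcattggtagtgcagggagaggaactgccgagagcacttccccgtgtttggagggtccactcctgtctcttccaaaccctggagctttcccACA
SNORA71A: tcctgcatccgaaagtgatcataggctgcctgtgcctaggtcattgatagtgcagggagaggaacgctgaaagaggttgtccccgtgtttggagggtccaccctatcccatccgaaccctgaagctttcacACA
SNORA73B: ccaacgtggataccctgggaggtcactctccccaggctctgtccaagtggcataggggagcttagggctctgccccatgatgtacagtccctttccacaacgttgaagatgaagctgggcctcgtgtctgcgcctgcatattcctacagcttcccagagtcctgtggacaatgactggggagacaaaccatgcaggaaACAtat
SNORD14A: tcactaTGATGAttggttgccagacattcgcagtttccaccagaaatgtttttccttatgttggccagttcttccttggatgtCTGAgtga
SNORD101: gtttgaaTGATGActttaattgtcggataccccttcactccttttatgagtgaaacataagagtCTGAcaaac
SNORD17 lies at chr20:17943353-17943589 on the minus strand, in intron 2 of 13 of SNX5. SNORA71C (chr20:37058313-37058446) and SNORA71A (chr20:37055952-37056085) both lie on the minus strand in intron 4 of 6 of SNHG17. SNORA73B (chr1:28835071-28835274) is on the plus strand in intron 2 of 12 of RCC1, at a locus that also holds SNHG3. SNORD101 (chr6:133136446-133136518) is on the plus strand in intron 3 of 5 of RPS12, and SNORD14A (chr11:17096201-17096291) on the minus strand in intron 5 of 5 of RPS13. The C box letters were found in all 7 SNORD genes above the minimum that were searched, against 60.7% of 384 listed SNORD genes. The D box letters were found in the same 7 genes and in 82.8% of those listed, and the ACA letters in 5 of 5 SNORA genes against 73.5% of 396. These counts leave out SNORD3A, SNORD3B-1, SNORD3B-2, SNORA40 and SNORA71B, which also met the minimum. Only the strand of the gene was searched, and a match is a description of the letters. SNORA71A and SNORA71C were identical at 113 of 136 aligned positions (83.1%).

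The estimates come from salmon, which assigns reads to transcripts, so the share of each gene's distinct 31-base words that also occur in a transcript of another gene was counted in the newer annotation used here. The count was 0 for 9 genes, SNORD17, SNORD101, SNORD14A, SNORD83A, SNORA55, SNORA65 and the 3 SNORA71 genes. SNORA73B shared 16.1%, mostly with SNHG3, and SNORD46 shared 16.2% with another copy of the same name. SNORD103A and SNORD103B were identical over 86 bases, and their estimates were equal in every sample. Counts below are of genes, so this pair enters them as 2 genes that share 1 set of values. SCARNA12 shared 87.1% of its words with transcripts of PHB2. SNORD3A, SNORD3B-1 and SNORD3B-2 shared 99.6%, 92.6% and 84.5%, with each other and with SNORD3C among others, so how reads were divided among them is uncertain.

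**Figure D1:**
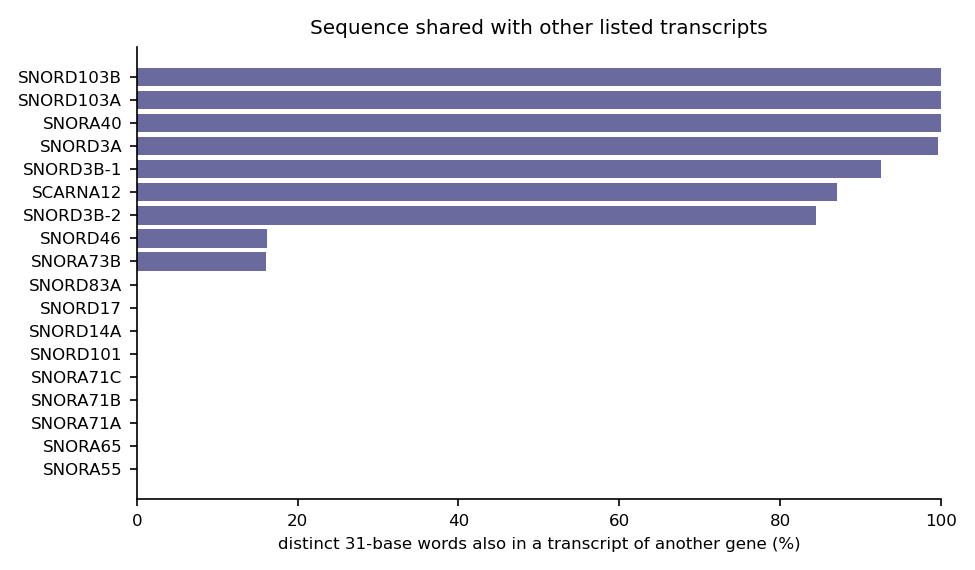
Share of the distinct 31-base words of each of the 18 genes that also occur in an annotated transcript of another gene, in percent on the x axis. The bars of 9 genes are at 0, and 7 genes stand above 80%.

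SNORA40 is a special case. Its estimated counts, 64.2 over the 9 samples, were all assigned to a 2227-base transcript at chr12:109171968-109174194, whereas its 128-base transcript was at 0 in each sample. All 2197 distinct words of the long transcript also occur in SSH1, and an exon of an SSH1 transcript covers it. The values of SNORA40 are given below as those of that long transcript and not of a snoRNA. Of the other 17 genes, 14 lay in an intron of a host gene on the same strand and 3, the SNORD3 genes, in none. The 15 genes within a host, SNORA40 included, fell in 12 hosts. SNHG17, a long noncoding RNA, held 3, and 5 hosts encode ribosomal proteins (RPL12, RPS12, RPL3 and RPS13 among them). The median length of the 18 genes was 134.5 bases, against 108 for all 839.

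Libraries held between 11627403 and 19036141 estimated counts. The CPM values given are counts scaled to a common library size with TMM factors. Without these factors, 3 counts corresponded to 0.19 to 0.303 CPM. With them, 3 counts were 0.182 CPM in the control cytoplasmic library and 0.328 in RNAi cytoplasmic replicate 2. A CPM is a share of the RNA in its library, so less of an RNA in each cell and fewer cells that hold it cannot be told apart, and a ratio of fractions compares shares, not molecules. The siRNA targets were lower in RNAi cells. WTAP fell by 0.83 on the log2 scale in nuclei and by 1.72 in cytoplasm (edgeR FDR 0.0168 and 0.000793), and VIRMA fell by 1.08 in nuclei and fell by 2.07 in cytoplasm (FDR 0.0312 and 0.00266). The summed level of 5 nuclear RNAs (MALAT1, NEAT1, KCNQ1OT1, MEG3 and SNHG14) was 256 to 421 CPM in nuclei, 33.3 in the control cytoplasmic library and 19.6 and 20.5 in the RNAi cytoplasmic ones. Of 7 markers listed as cytoplasmic, 5 (RPLP0, RPS2, EEF1A1, ACTB and GAPDH) were higher in every cytoplasmic library than in every nuclear one, whereas the mitochondrial MT-CO1 was higher in every nuclear library and MT-ND4 overlapped. The sum of the 7 was led by these mitochondrial RNAs and did not separate the fractions, at 59900 to 129000 CPM in control nuclei against 56100 in control cytoplasm and at 67900 to 106000 in RNAi nuclei against 70900 to 90600 in RNAi cytoplasm. The kidney-line markers PAX2 and NEFM were detected in every library. Among markers of other cell types HBB was at 0, PTPRC and ALB stayed at or below 0.22 CPM, and the collagen gene COL1A1 lay between 56.5 and 91.4 CPM. LHX1, NEFL and PECAM1 were not analysed here.

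RNAi nuclear replicate 2 stood apart in its small RNAs. Annotated spliceosomal RNA genes summed to 114 CPM in it, against 21.8 to 27.0 in the other nuclear libraries, and ribosomal RNA genes to 32.7 against 2.1 to 5.03. SNORA21 had 47.7 estimated counts there and at most 4.73 elsewhere, SNORD97 had 41 against at most 6, and the scaRNA gene SCARNA5 had 30 against at most 8. Values without this library are given for SNORA73B, SNORD3A and SNORD3B-1 and for the calls made without the minimum.

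Over all 839 genes, reads were few and mostly nuclear. The summed level was 43.2, 54.7 and 49.6 CPM in control nuclei, and 52.5, 95 and 53.9 in RNAi nuclei. It was 12.0 in the control cytoplasmic library and 6.35 and 9.1 in the RNAi cytoplasmic ones. Each nuclear library was above each cytoplasmic one, and the 95 belonged to RNAi nuclear replicate 2. No read was assigned to 562 of the genes in any sample, and 259 of the 821 genes below the minimum had some.

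**Figure D2:**
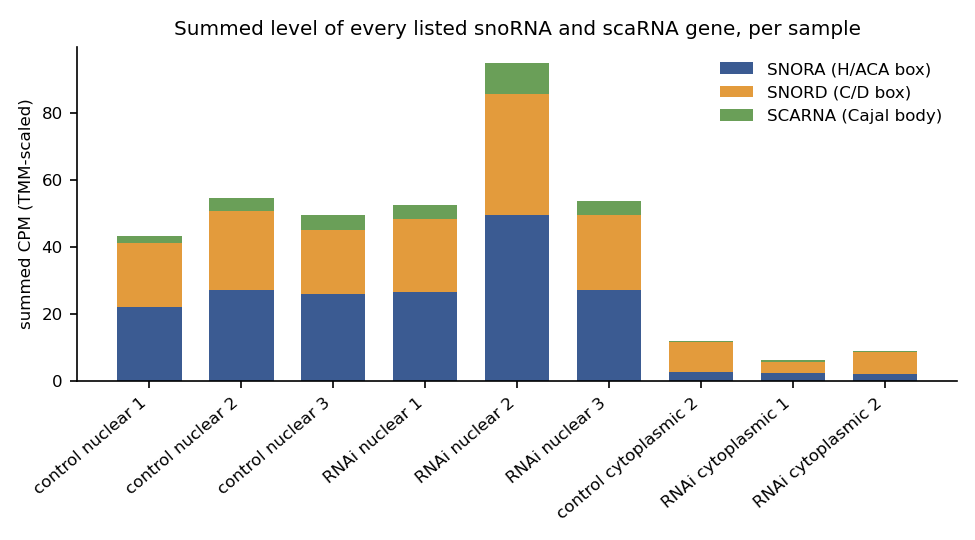
Summed TMM-scaled CPM of the 399 SNORA, 390 SNORD and 50 SCARNA genes in each of the 9 samples, as stacked bars from 0. The 6 nuclear bars lie between 43.2 and 95 CPM and the 3 cytoplasmic bars between 6.35 and 12.0, and RNAi nuclear replicate 2 is the tallest.

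By class, SNORA genes summed to 22 to 49.6 CPM in nuclei and 1.94 to 2.68 in cytoplasm. SNORD genes summed to 19.1 to 36.3 CPM in nuclei, and to 8.97 in the control cytoplasmic library against 3.31 and 6.72 in the RNAi cytoplasmic ones. SCARNA genes summed to 2.18 to 9.15 CPM in nuclei and 0.4 to 0.584 in cytoplasm. SNORD genes thus kept the largest summed level in cytoplasm, and SNORD17 alone was 4.62 of the 8.97 CPM of the control cytoplasmic library. The imprinted clusters had almost no reads. None of 15 SNORD113, 30 SNORD114 and 46 SNORD115 genes had a read, and 1 of 28 SNORD116 genes did, with a highest estimate of 1.

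At the edge of the minimum, SNORD46 and SNORD83A passed with exactly 3 samples. SNORD12, SNORD125 and SNORD69 reached 10 in 2 samples and stayed outside, with highest estimates of 12, 12 and 13, and 9 genes reached it in 1 sample. Of the 18 genes, 15 reached 10 in no cytoplasmic sample, so they passed only through the nuclei and had to be higher there. Of the 18, 8 reached 10 in all 6 nuclear libraries, and SNORD3A did so in all 9 samples.

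SNORA73B (U17), which acts in early cleavage, had 2.61, 4.3 and 4.6 CPM in control nuclei and 4.73, 10 and 4.58 in RNAi nuclei. It had 2 counts (0.122 CPM) in the control cytoplasmic library and 0 in both RNAi cytoplasmic ones. The nuclear groups overlapped, the highest value came from RNAi nuclear replicate 2, and every nuclear library was above every cytoplasmic one. From pooled counts the nuclear level of SNORA73B was 31.1 times the cytoplasmic one in control cells (exact 95% counting interval 8.45 to 259) and at least 45.1-fold higher in RNAi cells, the bound being set by 3 counts over the group. Without RNAi nuclear replicate 2 that bound was 34.2-fold. Such intervals cover counting error only. The bounds for genes at 0 take the nuclear counts as observed, without their counting error, so they are not limits of such an interval.

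SNORD14A (U14), which acts in cleavage and methylation of the small-subunit RNA, had 1.03, 1.09 and 0.708 CPM in control nuclei and 1.11, 1.30 and 0.582 in RNAi nuclei. It was at 0 in the 3 cytoplasmic libraries, and its nuclear level was at least 5.28-fold higher in control cells and at least 7.16-fold higher in RNAi cells. The nuclear groups overlapped fully. Of the other genes listed for roles in processing of ribosomal RNA precursors, SNORD3C, SNORD14B, SNORD14C, SNORD14D and SNORD22 were at 0 in each sample, SNORD118 (U8) stayed under 1 count and SNORD14E reached at most 6.

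The 3 U3 genes had reads in all cytoplasmic libraries. Their estimated counts were assigned to transcripts of 699 (SNORD3A), 583 (SNORD3B-1) and 688 (SNORD3B-2) bases. The values are those of these transcripts, and how far they reflect mature U3 was not tested. SNORD3A had 1.46, 3.03 and 2.33 CPM in control nuclei, 1.70, 6.38 and 3.89 in RNAi nuclei, 2.08 in control cytoplasm and 1.23 and 2.39 in RNAi cytoplasm. Nuclear and cytoplasmic values overlapped, and the pooled nuclear over cytoplasmic ratio was 1.10 (0.734 to 1.68) in control cells and 2.19 (1.52 to 3.21) in RNAi cells. Without RNAi nuclear replicate 2 the RNAi ratio of SNORD3A was 1.61 (1.08 to 2.43). SNORD3B-1 had 0.923, 1.16 and 0.949 CPM in control nuclei, 0.656, 3.25 and 1.03 in RNAi nuclei, 0.956 in control cytoplasm and 0.426 and 0.332 in RNAi cytoplasm. Its highest value was that of RNAi nuclear replicate 2, and without it the pooled RNAi ratio of SNORD3B-1 was 2.09 (0.936 to 5.10). SNORD3B-2 had a count of 0 in control nuclear replicate 1 and 1.20 and 1.24 CPM in the other control nuclei, 0.506 to 1.27 in RNAi nuclei and 0.264 to 0.751 in cytoplasm. Their shared bases leave the split between the 3 genes uncertain, as given above.

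SNORA71C was the most abundant of the 18 per length. It had 5.91, 6.82 and 6.99 CPM in control nuclei, 5.85, 7.51 and 5.02 in RNAi nuclei, 0.182 in control cytoplasm, and 0.156 and 0 in RNAi cytoplasm. The siRNA groups overlapped in nuclei, and the lowest nuclear value was far above the highest cytoplasmic one. Its mean over the nuclei was 47.4 CPM per kilobase, against 14.6 for SNORA71A and 6.95 for SNORA71B of the same host. SNORA71A had 1.58, 1.98 and 2.57 CPM in control nuclei and 1.39, 2.04 and 2.18 in RNAi nuclei. It had 0.122 CPM in the control cytoplasmic library and 0.156 and 0.328 in the RNAi ones. SNORA71B had 0.734 to 1.15 CPM in nuclei, 0.122 in control cytoplasm and 0 in both RNAi cytoplasmic libraries. SNORA71D, from the same host, had 15 counts over all nuclei and did not pass. The family is predicted to guide pseudouridylation of the small-subunit RNA.

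The lengths behind these values matter for the scale. Salmon's effective length, the stretch of a transcript where a read pair could start, was 24.6 to 34.2 of 134 bases for SNORA71C. The TPM of SNORA71C, which divides by that length, was 150 to 294 in nuclei, whereas its CPM was 5.02 to 7.51. All tests here used counts, so a TPM is given only for this gene.

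The remaining H/ACA genes were lower. SNORA65, a guide for the large-subunit RNA in an intron of RPL12, had 1.44, 2.25 and 1.95 CPM in control nuclei, 1.81, 3.53 and 2.40 in RNAi nuclei, 0.304 in control cytoplasm and 0.389 and 0.109 in RNAi cytoplasm. Its pooled nuclear level was 6.17 times (2.53 to 19.6) the cytoplasmic one in control cells and 9.14 times (4.05 to 25.5) in RNAi cells. SNORA55, in PABPC4, ranged from 0.177 to 0.974 CPM in nuclei, with 1 count in all cytoplasmic libraries together. SCARNA12, which guides a change on the U5 spliceosomal RNA, had 0.596 to 1.27 CPM in nuclei and at most 0.117 in cytoplasm, where 87.1% of its words belong also to PHB2. The long transcript listed as SNORA40 had 0.349, 0.687 and 0.330 CPM in control nuclei and 0.767, 1.14 and 0.933 in RNAi nuclei. Those siRNA groups did not overlap, but the difference did not pass the test (log2 0.98, SE 0.55, edgeR FDR 0.336).

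Among the other C/D genes, SNORD101 had 1.72, 1.36 and 1.06 CPM in control nuclei, 1.74, 1.76 and 0.727 in RNAi nuclei and 0 in the 3 cytoplasmic libraries. Its nuclear level was at least 7.72-fold higher in control cells and at least 10.2-fold higher in RNAi cells. SNORD103A and SNORD103B, guides for the small-subunit RNA, each had 0.472 to 1.02 CPM in nuclei and 0 in cytoplasm. SNORD46, a guide for the large-subunit RNA, had 0.443 to 0.928 CPM in nuclei, 1 count in control cytoplasm and 0 in RNAi cytoplasm. SNORD83A, in RPL3, had 0.354 to 0.800 CPM in nuclei and 0 in cytoplasm. A count of 0 allows up to 3 counts in a library, so these levels were not detectable at this depth, and absence is not shown.

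**Figure D3:**
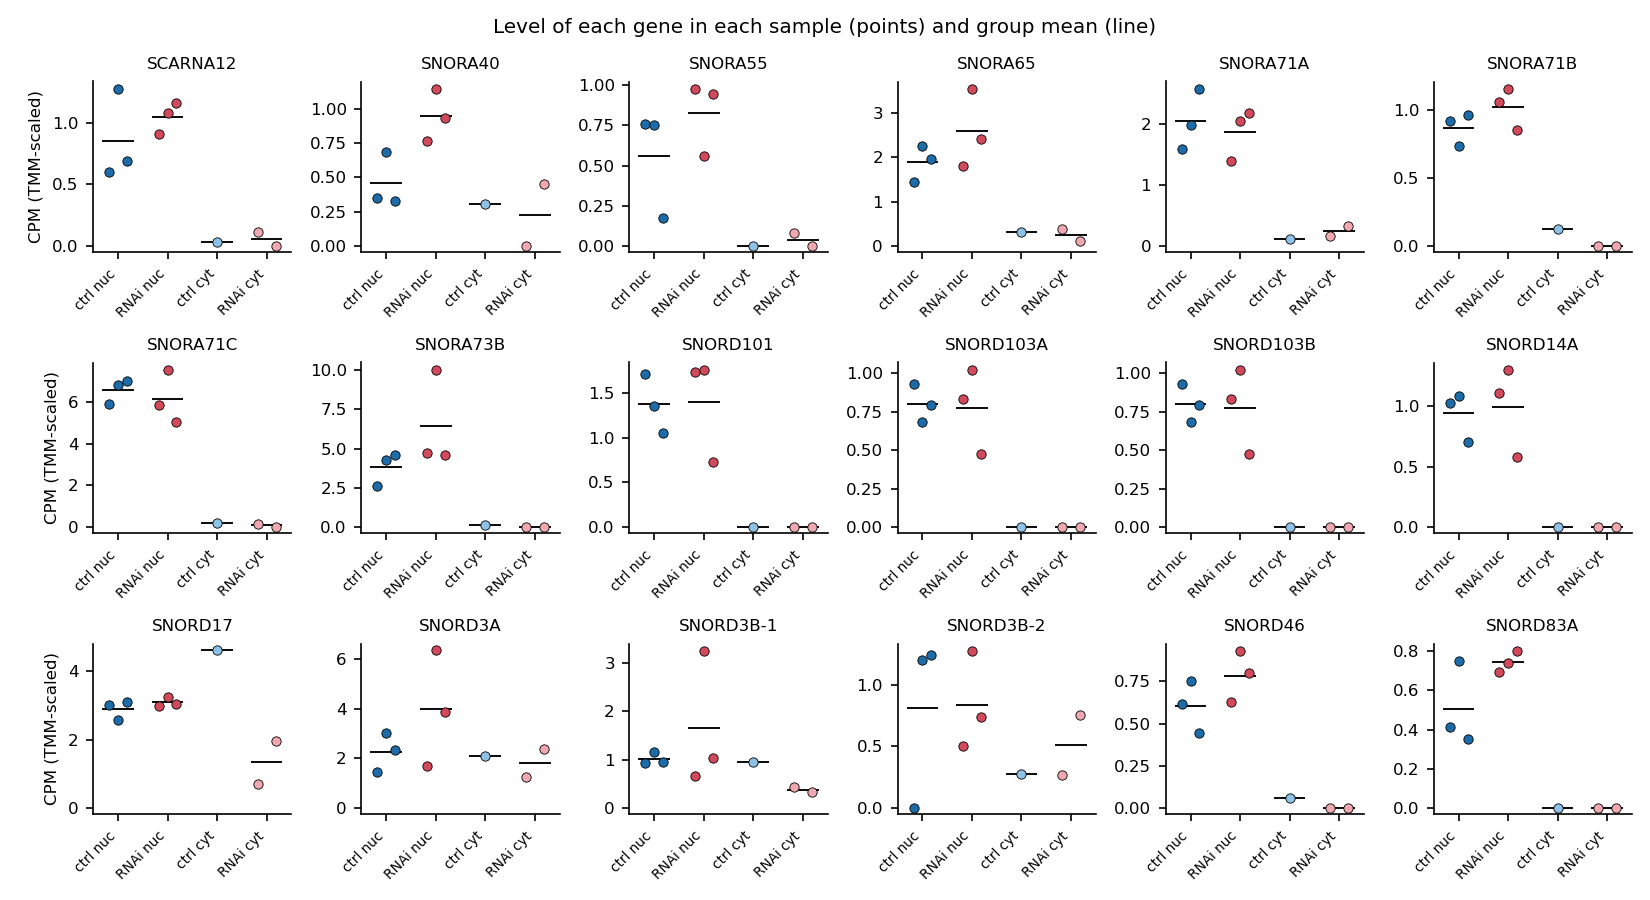
TMM-scaled CPM of each of the 18 genes in each sample (points), by group along the x axis, with the group mean as a line and its own y axis for each gene. Control cytoplasm is 1 sample. SNORD17 is the gene whose highest point is the control cytoplasmic sample, at 4.62 CPM.

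SNORD17, a C/D guide for the large-subunit RNA, had a different pattern. It had 3.02, 2.59 and 3.10 CPM in control nuclei and 2.99, 3.25 and 3.05 in RNAi nuclei. In cytoplasm it had 4.62 CPM in the control library and 0.700 and 1.97 in the RNAi libraries, from 76, 9 and 18 estimated counts. The nuclear groups overlapped across siRNAs, the control cytoplasmic library was above all nuclear ones, and both RNAi cytoplasmic libraries were below them.

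Relative to the control, SNORD17 fell by 1.86 (SE 0.42) on the log2 scale in RNAi cytoplasm (edgeR FDR 0.0131). In nuclei the change was 0.09 (SE 0.27, FDR 0.885). The change of the nuclear over cytoplasmic ratio was 1.95 (SE 0.51, FDR 0.0342). A gene was called changed at a Benjamini-Hochberg FDR under 0.1 over all 16106 genes and a log2 change beyond 0.5. Pooled counts gave a nuclear over cytoplasmic ratio of 0.625 (0.464 to 0.846) in control cells and 2.51 (1.64 to 3.97) in RNAi cells. The control value rests on 1 cytoplasmic library, whose spread the fit takes from the other groups. The summed level of the 5 nuclear RNAs was also higher in that library than in the RNAi cytoplasmic ones (33.3 against 19.6 and 20.5 CPM), as were the spliceosomal RNA genes (9.27 against 4.98 and 5.90 CPM). Their part in the SNORD17 result was not tested. The host SNX5 changed by −0.20 in cytoplasm and by 0.08 in the ratio, and neither passed the test.

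In the change of the ratio, 1 of the 18 genes, SNORD17, was called higher, where 10.4% of all genes were, and 0 were called lower, where 7.92% were. The median log2 change was 0.57 over the 18 genes and −0.05 over all genes. In cytoplasm 1 gene, SNORD17 again, was called lower (14.3% of all genes) and 0 higher (10.4%), with medians of −0.08 and 0.01. These shares of the 18 genes were near or under the background. The 5 genes at 0 in every cytoplasmic library (SNORD101, SNORD103A, SNORD103B, SNORD14A and SNORD83A) could not show a cytoplasmic change. Their ratio values only repeat their nuclear ones, with SE of 6.78 to 740. SNORA71B, SNORA73B and SNORD46 had 2, 2 and 1 counts in control cytoplasm and 0 in RNAi cytoplasm. Both medians over the 18 genes include these values, so they do not measure a shift of the set.

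In nuclei, the comparison with 3 libraries on each side, 0 of the 18 genes were called higher (2.48% of all genes) and 0 lower (2.43%). None had an unadjusted p under 0.05, and DESeq2 called 0 as well. The median log2 change was 0.23 against 0.00 over all genes. The nuclear log2 change of SNORA73B was 0.74 (SE 0.35, FDR 0.263), with means of 3.84 ± 1.07 CPM in control nuclei and 6.44 ± 3.10 in RNAi nuclei (SD, n = 3 each). Without RNAi nuclear replicate 2 the change of SNORA73B was 0.29 (SE 0.29, FDR 0.671), and the count of called genes was again 0. For SNORA71C, the gene with the most nuclear counts, the log2 change was −0.11 (SE 0.22, FDR 0.827).

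Between fractions, the counts describe what the minimum selected. In RNAi cells 17 of the 18 genes were called higher in nuclei (32.8% of all genes) and 0 lower (25.0%). In control cells 13 were called higher (28.1%) and 0 lower (22.7%). With genes at 0 in cytoplasm entered at their lower bound, the median log2 ratio was 2.67 in RNAi cells, where 8 genes were at 0, and 2.26 in control cells, where 6 were. SNORD3B-2 was the gene not called in RNAi cells (0.79, SE 1.02, FDR 0.521). In control cells SNORA40, SNORD17, SNORD3A, SNORD3B-1 and SNORD3B-2 were not called. SNORD17 had a negative value there (−0.67, SE 0.35, FDR 0.14), and was called lower in nuclei when either RNAi cytoplasmic replicate was left out. Without RNAi cytoplasmic replicate 1 its ratio in RNAi cells was 0.65 (FDR 0.106), not called, against 1.28 with all libraries. For SNORD3A the RNAi ratio of 1.14 (FDR 0.0934) fell to 0.65 (FDR 0.309) without RNAi nuclear replicate 2, and SNORD3B-1 was 1.16 (FDR 0.0783) without it.

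Fitting every gene with a count above 0 after rounding brought in 260 of the 839 genes, with fewer counts behind each. In RNAi cells 54 were then called higher in nuclei, 37 of them below the minimum, which is the share found over all genes fitted (20.8% for both). In control cells 26 were called higher, against 14.1% of all genes. In nuclei 4 were called higher in RNAi cells (SCARNA5, SNORA21, SNORA73B and SNORD97), where 1.83% of all genes fitted were. SNORA21, SNORD97 and SCARNA5 rested on RNAi nuclear replicate 2, as given above, and SNORA73B was also highest there. With that library left out, a fit chosen after the data were seen, 0 of 245 genes were called in nuclei. Of all genes fitted, 1.44% were called higher there and 1.31% lower. Then 41 were called higher in nuclei than in cytoplasm in RNAi cells (19.7% of all genes fitted). In both fits SNORD17 was again the gene called in the ratio and in cytoplasm.

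Each gene was then set beside its host, since reads from the intron of an unspliced host can be assigned to a gene within it. The hosts met the minimum in both fractions, whereas 15 of the 18 genes met it only through nuclei. A ratio above that of the host was thus largely set by the choice of genes, and it is given as a description. The host log2 ratios lay between −1.59 and 0.56 in RNAi cells and between −1.30 and 1.06 in control cells. SNORA73B was set beside RCC1 because protein-coding hosts came first. SNHG3, at the same locus, had 1.62 (SE 0.18) in RNAi cells and 1.91 (SE 0.25) in control cells, against −0.74 and −0.43 for RCC1. The hosts that encode ribosomal proteins were lower in nuclei in RNAi cells, with RPL12 at −1.59 (SE 0.13) and RPS12 at −1.24 (SE 0.19), whereas SNORA65 and SNORD101 in their introns were higher there. SNHG17 was itself higher in nuclei, by 0.52 (SE 0.12) in RNAi and 1.06 (SE 0.16) in control cells, and SNORA71C in its intron by 5.93 (SE 0.51) and 5.10 (SE 0.55). Since 14 of these genes lie in introns, a spliced host ratio does not measure unspliced RNA, and the part of intron reads was not tested.

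**Figure D4:**
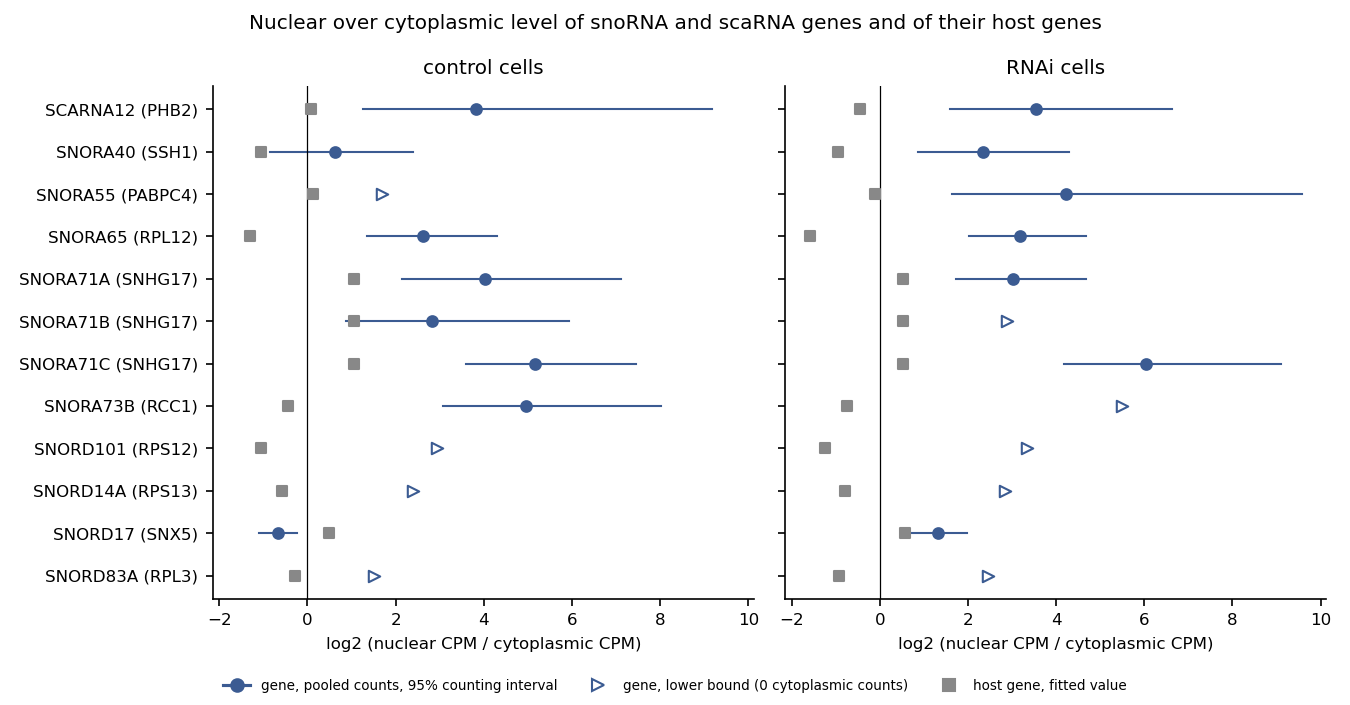
Log2 of the nuclear over cytoplasmic level for 12 of the 15 genes with a host (host in brackets) in control and RNAi cells. Circles are pooled counts with exact 95% counting intervals, open triangles are lower bounds for genes at 0 in cytoplasm, and squares are fitted values of the host. For SNORA73B the square is that of RCC1 and not of SNHG3. In control cells the circle of SNORD17, which reached the minimum in cytoplasm too, lies to the left of its host's square, and the lower limit of SNORA71B reaches below its host. The other genes drawn met the minimum only through nuclei, so their place to the right is not a finding.

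Genes from the same host did not have the same level. In RPS12, SNORD101 had 111 counts over the nuclei, SNORD100 had 19 and SNORA33 had 18. In RPS13, SNORD14A had 77 and SNORD14B had 0. In RPL3, SNORD83A had 50, SNORD43 had 25 and SNORD83B had 0.388. Per kilobase, the nuclear level was 62.7% of that of the host for SNORA73B (RCC1 taken as host), 32.4% for SNORA71C and 8.97% for SNORD17. SNHG3, at the locus of SNORA73B, had 180 ± 38.9 CPM in control nuclei, against 100 ± 15.5 for RCC1 (SD, n = 3 each). The share was 0.704% for SNORD83A, the lowest, where RPL3 had 936 CPM per kilobase. These shares divide by full length, whereas the effective length of SNORD83A was 19.2 to 24.3 of 95 bases. They therefore depend on the length of a gene as well as on its level.

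Of the 12 hosts, the nuclear over cytoplasmic ratio was called lower for RPL3 (−0.64, SE 0.15, FDR 0.0246), SNHG17 (−0.55, SE 0.19, FDR 0.0939) and PHB2 (−0.53, SE 0.14, FDR 0.0412). None was called higher. Over all genes 7.92% were called lower and 10.4% higher in that comparison. In cytoplasm RPL3 and SNHG17 rose by 0.56 and 0.57 on the log2 scale. The genes in the introns of these hosts, SNORD83A, the SNORA71 genes and SCARNA12, were called neither in the ratio change nor in cytoplasm. SNORD83A was at 0 in every cytoplasmic library. Over the cytoplasmic libraries SNORA71A had 7 counts, SNORA71C 5, SNORA71B 2 and SCARNA12 2.09. Counts this low could hardly show changes of the size seen in the hosts, so no difference from the hosts is read from them.

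The proteins that build and carry these RNAs were counted as a group. Of 30 genes for core proteins, assembly factors, Cajal body and transport factors and 3′ trimming enzymes, 29 were tested. In the change of the ratio 7 were called higher (10.4% of all genes) and 2 lower (7.92%), with a median of 0.25 against −0.05 over all genes. In cytoplasm 8 were called lower (14.3%) and 1 higher (10.4%), with medians of −0.19 and 0.01. In nuclei 1 was called higher (2.48%), NOP10 of the H/ACA core, which rose by 0.62 (SE 0.17, FDR 0.07). In control cells 16 were called lower in nuclei (22.7% of all genes) and 0 higher (28.1%), and in RNAi cells 9 lower (25.0%) and 4 higher (32.8%). The cytoplasmic and ratio counts share the single control cytoplasmic library.

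NOP58, a core protein of C/D particles, had 16.5 ± 4.16 CPM in control nuclei and 14.5 ± 2.29 in RNAi nuclei (SD, n = 3 each), 12.7 in the control cytoplasmic library and 3.82 ± 0.00654 in RNAi cytoplasm (n = 2). It fell by 1.73 (SE 0.31) on the log2 scale in cytoplasm (FDR 0.0046). The other core C/D genes, FBL, NOP56 and SNU13, had cytoplasmic values of 0.37, −0.08 and −0.02, and none was called. In the H/ACA core, DKC1, NHP2, NOP10 and GAR1 had cytoplasmic values from −0.27 to 0.18, and none was called. Among trimming enzymes, MTREX fell by 1.61 (SE 0.24), TENT4B by 1.36 (SE 0.33) and PARN by 0.56 (SE 0.17) in cytoplasm. Among assembly factors RPAP3 fell by 1.90 (SE 0.39) and ZNHIT6 by 0.86 (SE 0.21), whereas RUVBL2 rose by 0.59 (SE 0.19).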

How the data were processed

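Libraries for mRNA were prepared by the authors with the Lexogen SENSE kit from nuclear and cytoplasmic RNA, trimmed with cutadapt and quantified with salmon against Ensembl transcripts of hg19. The deposited values are estimated counts per transcript without normalization between samples, TPM values scaled by effective length and, as another column, transcript lengths in bases. Versions of cutadapt and salmon are not given in the sources used here.

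Samples were grouped by condition and fraction per the labels. Transcripts were matched without version number to GENCODE 44 lifted to GRCh37, the build called hg19. Of 215170 transcripts, 183122 (85.1%) matched; they held 83.07% to 88.31% of each library's counts. Gene values are sums of these, rounded to whole numbers. Hosts were genes on the same strand spanning the whole snoRNA, protein-coding before long noncoding, then the shortest. The members and lists were chosen with earlier results of these data known.

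The test was edgeR 4.0.16 in R 4.3.3 (quasi-likelihood, TMM, 4 groups, no replicate block, residual df 5) on 16106 genes with at least 10 counts in at least 3 samples. Calls needed an FDR under 0.1 and a log2 change beyond 0.5. The spread of the single control cytoplasmic sample is assumed to be that of the other groups. On simulated counts of 16106 genes with 200 changed by 2 on the log2 scale, 88.5% were found in the ratio change and 97.5% in the nuclear comparison, with 5.35% and 11% of found genes unchanged. Depths were 11627403 to 19036141 estimated counts, and intervals and the limit of 3 counts cover counting error only. Exact 95% intervals of pooled ratios used scipy 1.17.1.

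Alternatives were DESeq2 1.42.0 (size factors, Wald test), library size only, other filters, a transcript length offset, limma 3.58.1 on log2(TPM + 1) and log2(TPM + 0.1), a replicate block, leaving out any sample but the control cytoplasmic one, an FDR of 0.05 and, added after seeing the data, no filter with RNAi nuclear replicate 2 left out. Genes named were the 10 with the highest mean CPM, up to 10 called genes per comparison whose sign held in every fit without 1 sample, genes of textbook roles, their hosts, the pathway proteins and the siRNA targets. SNORA71B, SNORD3B-1 and SNORD3B-2 differ in length from the annotation, so no bases were read for them. Some hosts, and a sequence, are not reported here.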

Additional observations from a re-analysis of the deposited data

Results flagged for a closer look

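A test of the difference itself, the change of the nuclear over cytoplasmic ratio between RNAi and control cells (edgeR, on the log2 scale), passed for 14 of the genes named. It was higher in RNAi cells for SNORD17 (1.95) among the snoRNA genes. Among hosts it was lower for RPL3 (−0.638), SNHG17 (−0.545) and PHB2 (−0.529). Among genes of proteins that build or carry snoRNAs it was higher for RPAP3 (1.61), NOP58 (1.55), MTREX (1.47), TENT4B (1.45), ZNHIT6 (0.773), NUFIP1 (0.736) and NCBP1 (0.572), and lower for RUVBL2 (−0.817) and PIH1D1 (−0.561). The siRNA target WTAP had a value of 0.892. Each value uses the single control cytoplasmic library. In this comparison 18 snoRNA and scaRNA genes, 12 hosts and 29 genes of such proteins were tested. Over all 16106 genes 10.4% were called higher and 7.92% lower.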

How the results depend on the processing

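With at least 10 counts in every sample, 1 of the 18 genes was left, so the counts called fell to 0 for the ratio change, 0 for lower in RNAi cytoplasm, 1 for nuclear in RNAi cells and 0 for nuclear in control cells. Applied to the choice of genes, 10 counts in at least 1 sample gave 30 genes and in every sample 1. The limma fits on log2(TPM + 1) and log2(TPM + 0.1) called 4 and 4 genes higher in the ratio change (SNORA71B, SNORA73B, SNORD46 and SNORD17 in both). They called 3 and 4 lower in RNAi cytoplasm. In cytoplasm the 3 genes besides SNORD17 had 2 or fewer counts in the control library and 0 in both RNAi ones. Of all 16106 genes these fits called 1053 and 1251 higher in the ratio change and 1413 and 1736 lower in RNAi cytoplasm. Without a filter, 1 gene (SNORA73B) was called higher in RNAi than in control nuclei (1.83% of all genes fitted). In control cells 1 (SNORD17) was called lower in nuclei than in cytoplasm (13.0%). Leaving out 1 nuclear sample gave 1 gene for the higher ratio change and 1 for lower in RNAi cytoplasm each time. Over all fits without 1 sample, 13 to 17 genes were called nuclear in RNAi cells and 13 to 14 in control cells. The fit without RNAi cytoplasmic replicate 2 leaves 1 library in that group. There the ratio change of SNORA40 was 6.08, and SNORD17 was −0.686 for nuclei over cytoplasm in control cells. None of the 32 called values of single genes changed sign under an alternative that fitted it. Of all 90 values of the 18 genes, 27 did not keep their sign in at least 1 fit without a sample, and none of these was called. The 27 include the cytoplasmic values of SNORD101, SNORD103A, SNORD103B, SNORD14A and SNORD83A, which were 0 and had no sign to keep. A fit with no filter and RNAi nuclear replicate 2 left out was chosen after seeing the data. In it 1 gene (SNORD17) was called lower in nuclei than in cytoplasm in control cells (13.1% of all genes fitted).

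SNORD17 kept its calls in the ratio change and in cytoplasm in the 18 alternatives that fitted it, at log2 values of 1.32 to 2.84 for the ratio change and −2.76 to −1.23 for cytoplasm. With 9 counts in 1 library it dropped out of the fit with 10 in every sample, and its nuclear call in RNAi cells was lost in 1 of the 18. It could not be fitted apart from the single control cytoplasmic library, which limits both. Over all genes, library size only gave 164 genes with a lower ratio change against 1276, and 430 higher in RNAi cytoplasm against 1681. The limma fits gave 32 and 60 genes with a lower ratio change. In nuclei, leaving out 1 sample gave 31 to 615 genes higher and 20 to 476 lower, against 400 and 391. The count with a lower ratio change fell to 569 without control nuclear replicate 3, 704 without RNAi nuclear replicate 3 and 735 without RNAi cytoplasmic replicate 2, and the count higher in RNAi cytoplasm to 1045 without the last.

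The replicate block changed no call among the 18 genes: 17 and 13 were called nuclear, 1 higher in the ratio change, 1 lower in RNAi cytoplasm and 0 in nuclei. Over all genes it gave 2125 with a higher and 1921 with a lower ratio change, against 1681 and 1276. Same-numbered nuclear samples correlated at 0.183, 0.105 and 0.0436 in their deviations from group means, and differently numbered ones at −0.168 to 0.0573. Between nuclear and RNAi cytoplasmic samples, same-numbered ones correlated at 0.0384 to 0.2 and differently numbered ones at −0.2 to 0.062. The RNAi cytoplasmic group holds 2 samples, so their deviations mirror each other. Whether the numbers pair the samples was not tested, and the main fit used no replicate block.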
